A study of Mus musculus with 6 samples.

Results

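The nuclear genes whose products build complexes I to V of the respiratory chain, without being structural subunits of them, were examined in RNA-seq of BV2 cells, an immortalised mouse microglial line. The members were taken by name from a list of 45 assembly factors, and 39 of them had counts in the deposited table of 17872 genes. These were 12 of 14 factors for complex I, all 4 for complex II, all 6 for complex III, 14 of 18 for complex IV and all 3 for complex V. Ecsit, Foxred1, Sco2, Cox16, Cox17 and Pet117 were not analysed here. All 39 passed the filter on low counts, the least abundant being Cox20 with a mean of 38.8 counts per library.

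The study compared 3 libraries of wild-type cells (controls) with 3 libraries of cells labelled Tfam knockout, made with CRISPR-Cas9. TFAM coats mitochondrial DNA and is needed to start its transcription, and the comparison asks what its loss does to the microglial transcriptome. No further treatment is given for either group, and the protocol attached to all samples gives 2 µg/mL puromycin for edited cells. Whether the edited line was a clone or a pool, what the controls carried and whether replicates were separate cultures is not in the labels, so p-values here reflect the spread among these libraries alone, and that spread may be technical. Totals ran from 14642397 to 28418133 counts in controls and from 13850691 to 20889786 in the labelled knockout libraries. Tfam mRNA was not lower in the labelled knockout libraries (38.2 ± 1.01 against 42.3 ± 1.15 CPM, SD, n = 3 each, adjusted p = 0.193 in edgeR's quasi-likelihood test, and 0.0403 as higher with library totals alone), so it does not show the edit. Mitochondrial genes took between 3.52% and 4.31% of counts in controls and between 1.37% and 1.42% in the labelled knockout libraries. Levels are given as CPM, counts per 1e+06 counts after TMM scaling, and every direction is from control to labelled knockout. Of 13 microglia and macrophage markers 11 were measured, with Cd68, Csf1r, Trem2, Spi1, Ptprc and Adgre1 among the abundant ones, Aif1 and Cx3cr1 low (2.97 and 1.82 CPM in controls) and Tmem119 and Sall1 near 0 (0.517 and 0.0454 CPM). Of the 9 that could be tested 1 rose, Adgre1 (from 265 to 406 CPM), and 6 fell, among them Csf1r (from 501 to 182 CPM) and Trem2 (from 308 to 173 CPM), and the summed markers ran from 2965 to 3243 CPM in controls and from 2305 to 2519 CPM in labelled knockout libraries. Summed markers of other brain cells were low, at 0.978 to 1.46 CPM in controls and 0.944 to 1.53 CPM in labelled knockout libraries for 2 astrocyte genes, and 0.991 to 3.13 and 2.07 to 2.83 CPM for 3 neuronal genes. For 4 oligodendrocyte genes, led by Mbp, the sums were 24.4 to 25.2 and 11.5 to 14.0 CPM. Their part in the results was not tested.

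The respiratory chain complexes are assembled from subunits of both genomes, apart from complex II, whose subunits are all nuclear. Assembly factors hold unstable intermediates, insert hemes, copper and iron-sulfur clusters, modify single residues of subunits, or bring modules together, and most leave before the complex is finished. Loss of single factors is a known cause of isolated complex deficiencies.

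Assembly factor mRNAs were called in both directions, in equal number with TMM scaling and as 13 higher and 5 lower with library totals alone. Of the 39 members, 7 rose, 7 fell and 25 did not pass at an adjusted p below 0.05 (edgeR's quasi-likelihood test, adjusted over 13403 genes). Ndufaf5, Sdhaf1, Cox18, Atpaf2, Cox10, Ttc19 and Nubpl rose. Uqcc3, Pet100, Cox19, Sdhaf4, Ndufaf1, Coa6 and Tmem70 fell. The called share, 35.9%, stands against 44.2% of all tested genes, of which 21.3% rose and 22.9% fell, so the assembly factors were not called more often than genes at large. The median log2 fold change of the members was 0.07, against 0.00 for all tested genes. In bulk RNA, fewer cells with a transcript and less of it per cell cannot be told apart.

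Most changes were small. At least 1.5-fold was reached by 2 of the members that rose (5.13%, against 8.21% of tested genes), Ndufaf5 and Sdhaf1. It was reached by 5 of those that fell (12.8%, against 11.3%), Uqcc3, Pet100, Cox19, Sdhaf4 and Ndufaf1. Only Uqcc3, Pet100 and Cox19 stayed past 1.5-fold in all 15 alternatives. Ndufaf5 did not without labelled knockout 1 (0.56, log2). Sdhaf1 fell short without labelled knockout 3 (0.36) and also with offsets for length and GC (0.55). Sdhaf4 did not with offsets for length and GC (-0.49). Ndufaf1 did not without control 2 (-0.47), without labelled knockout 1 (-0.56) or with library totals (-0.50). Of the 25 members that did not pass, 22 had a 95% interval of the fold change that lay within 1.5-fold in either direction. The exceptions were Cox20, Uqcc2 and Coa7. The groups did not overlap for any of the 14 called members, and did not for 21 of all 39 members (53.8%, against 52.9% of tested genes).

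**Figure D1:**
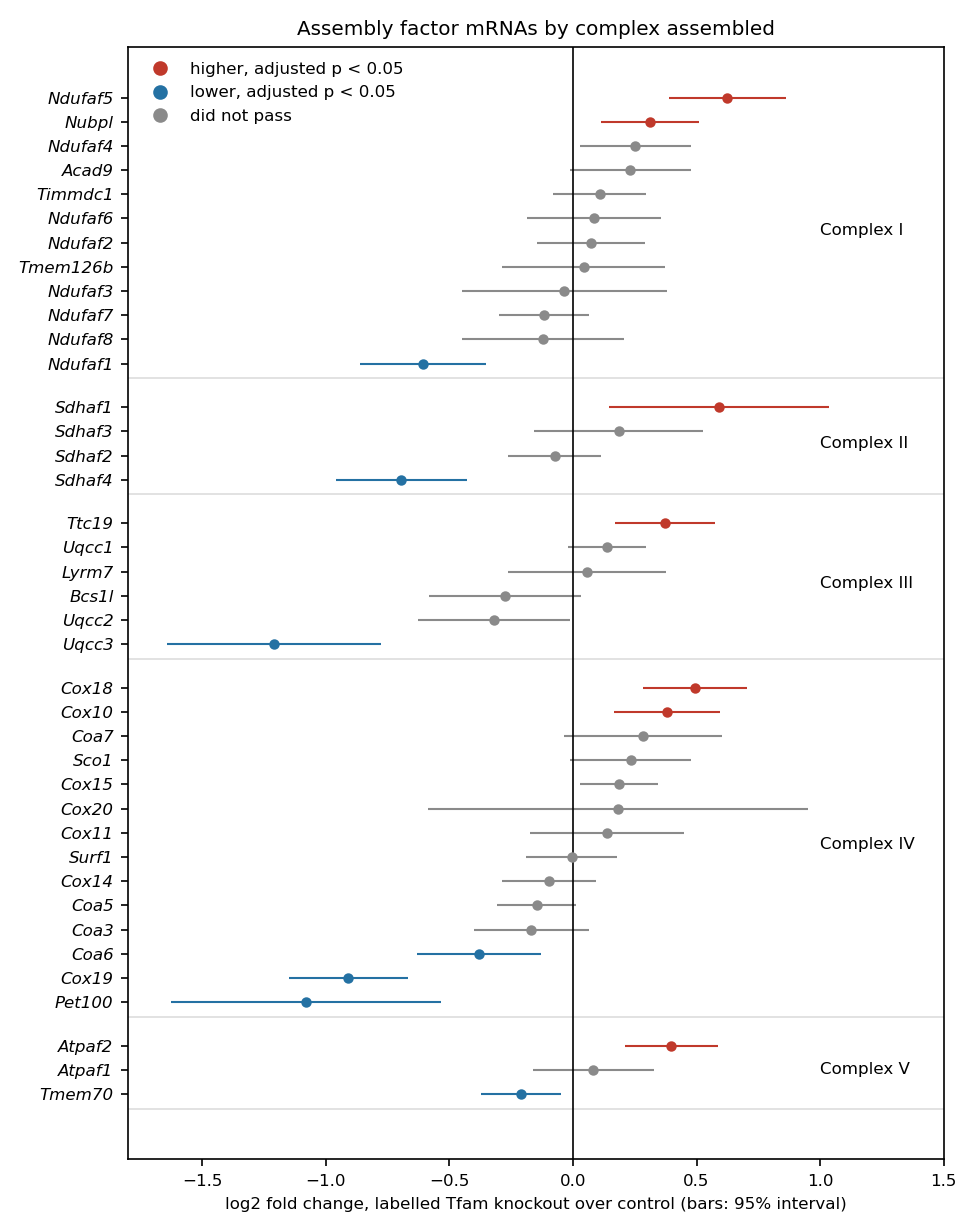
Log2 fold change of each of the 39 measured assembly factors (x axis, labelled Tfam knockout over control) with its 95% interval, grouped by the complex assembled and coloured by the edgeR call. Each complex holds at least 1 member that rose and 1 that fell, from -1.21 for Uqcc3 to 0.62 for Ndufaf5.

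**Figure D2:**
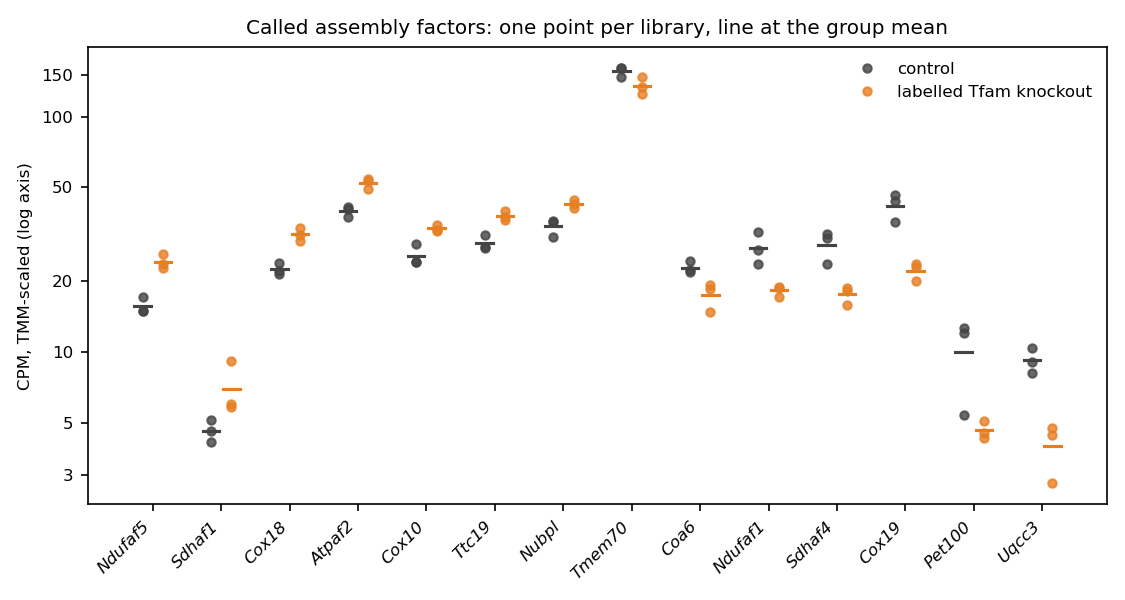
TMM-scaled CPM on a log axis of the 14 called assembly factors, with 1 point per library and a line at each group mean, ordered by fold change. The control and labelled knockout libraries do not overlap for any of them, and control 1 lies next to the labelled knockout libraries for Pet100.

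Among complex I factors, 2 of 12 rose, 1 fell and 9 did not pass, and the middle log2 fold change of the set was 0.08. Ndufaf5, which hydroxylates an arginine of the subunit NDUFS7 in the module that binds ubiquinone, rose most in the main test, though not separably from the complex II factor Sdhaf1 (0.59), which was the higher of the pair without control 2, control 3, labelled knockout 1 or labelled knockout 2. Its CPM were 17.1, 14.9 and 14.9 in controls 1 to 3 and 26.1, 22.8 and 23.6 in labelled knockout libraries 1 to 3. All 3 labelled knockout libraries lay above all controls, and the log2 fold change was 0.62 ± 0.112 (SE, adjusted p = 0.000239, edgeR). The stretch from 250 bases before to 50 bases after its start is shown as that of the complex I factor that rose most. In it and in the stretches below, capitals mark matches to 4 motifs known from promoters of mitochondrial or growth-related genes, namely the core letters of NRF1 (GCATGCG), ETS (CCGGAAG), YY1 (ATGGCGG) and the E-box (CACGTG), on either strand. Sequences are from RefSeq on GRCm38.p6, 5′ to 3′ along the gene.
Ndufaf5 promoter, chr2:140170396-140170695, strand +: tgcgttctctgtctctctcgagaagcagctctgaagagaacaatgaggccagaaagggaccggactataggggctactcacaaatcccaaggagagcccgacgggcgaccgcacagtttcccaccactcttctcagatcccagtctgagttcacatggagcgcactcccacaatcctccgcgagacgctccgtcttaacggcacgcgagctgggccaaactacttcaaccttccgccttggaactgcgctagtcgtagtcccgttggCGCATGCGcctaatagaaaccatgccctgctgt
The NRF1 match of Ndufaf5 lies just after the start. Nubpl, which delivers iron-sulfur clusters to complex I, read 35.7, 30.9 and 36.2 CPM in controls and 42.7, 41.0 and 44.2 CPM in labelled knockout libraries. These are a narrow gap and a small rise of 0.31 ± 0.0943 (adjusted p = 0.0123, edgeR), and the call did not survive leaving out labelled knockout 3 or control 2 (adjusted p up to 0.0644) and under a correction by per-library offsets for length and GC (adjusted p = 0.0738).

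The complex I factor that fell was Ndufaf1, a core member of the MCIA group, which builds the part of the membrane arm that holds ND2. It read 27.1, 32.5 and 23.6 CPM in controls and 17.1, 18.8 and 18.8 CPM in labelled knockout libraries, a fold change of -0.61 ± 0.120 on the log2 scale (adjusted p = 0.000566, edgeR). The labelled knockout libraries were close together and all under the lowest control. Its MCIA partners did not pass: Acad9, an acyl-CoA dehydrogenase with a second role in assembly, was at 0.23 (95% interval -0.01 to 0.48), Timmdc1 at 0.11 (-0.08 to 0.30) and Tmem126b at 0.04 (-0.29 to 0.37). Acad9 passed as higher with library totals alone and without control 1 (adjusted p = 0.0406 for the latter). Of the 6 factors for the module that binds ubiquinone, Ndufaf5 passed in the main test and the other five did not. Its partner Ndufaf8, which stabilises the NDUFAF5 protein, was at -0.12 (-0.45 to 0.21), and the methyltransferase Ndufaf7 at -0.12 (-0.30 to 0.07), which passed as lower with the offsets (-0.22, adjusted p = 0.0238). Ndufaf4 was at 0.25 (0.03 to 0.48, adjusted p = 0.0632, edgeR), with all labelled knockout libraries above all controls, and passed with library totals (adjusted p = 0.0119) and without labelled knockout 2 (adjusted p = 0.0332), while its partner Ndufaf3 was at -0.04 and Ndufaf6 at 0.08. Ndufaf2, which joins late in assembly, was at 0.07 in the main test and at 0.31 (adjusted p = 0.00662) with the offsets, and 65.6% of its exonic bases overlap B230220B15Rik on the other strand, which has no row in the count table.

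Complex II factors were split. Sdhaf4, which binds the flavin-loaded subunit SDHA and helps it meet SDHB, read 23.5, 31.6 and 30.6 CPM in controls and 18.2, 15.7 and 18.7 CPM in labelled knockout libraries. All labelled knockout libraries were below all controls, with a log2 fold change of -0.69 ± 0.125 (adjusted p = 0.000236, edgeR). Sdhaf1, which helps to load iron-sulfur clusters into SDHB, read 4.12, 5.15 and 4.60 CPM in controls and 5.996, 5.80 and 9.14 CPM in labelled knockout libraries. Labelled knockout 3 stood above the other libraries, and the call at 0.59 ± 0.211 (adjusted p = 0.0304, edgeR) was lost without it (0.36), without control 1 or without control 3 (adjusted p up to 0.211). In the GENCODE M21 annotation 69.6% of the exonic bases of Sdhaf1 overlap a gene on the other strand, E130208F15Rik, which has no row in the count table, and the library kit does not mark strand, so reads of the pair cannot be told apart. Sdhaf2, which helps to attach the flavin to SDHA, did not pass at -0.07 (95% interval -0.26 to 0.11), nor did Sdhaf3, the partner of Sdhaf1, at 0.18 (-0.16 to 0.53).

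Among complex III factors, Uqcc3 fell most. Over all members its decrease was the largest in the main test, but it lay within error of that of the complex IV factor Pet100, which was the larger without control 1 (-1.40 against -1.21) and without labelled knockout 2 (-1.027 against -1.004). Uqcc3 takes part in an early intermediate around cytochrome b, the subunit that mitochondrial DNA encodes. Its CPM were 9.07, 8.15 and 10.4 in controls and 4.44, 2.76 and 4.74 in labelled knockout libraries, from 255, 125 and 147 against 94, 48 and 68 counts. The groups were far apart, and the log2 fold change was -1.21 ± 0.206, or 2.31-fold lower (adjusted p = 0.00014, edgeR). Its start region is shown as that of the complex III factor that fell most.
Uqcc3 promoter, chr19:8880884-8881183, strand -: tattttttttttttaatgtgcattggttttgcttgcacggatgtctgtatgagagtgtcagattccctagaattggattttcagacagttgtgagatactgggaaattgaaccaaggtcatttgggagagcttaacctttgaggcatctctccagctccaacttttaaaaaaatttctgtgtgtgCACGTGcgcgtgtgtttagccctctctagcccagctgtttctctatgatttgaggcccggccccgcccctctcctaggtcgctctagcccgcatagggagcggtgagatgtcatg
The E-box of Uqcc3 is the only match to the 4 motifs in this window. Uqcc1 and Uqcc2, which act together on newly made cytochrome b, did not pass. Uqcc1 was at 0.14 (95% interval -0.02 to 0.30), with all labelled knockout libraries above all controls. Uqcc2 read 62.2, 100 and 95.1 CPM in controls and 77.1, 55.2 and 73.0 CPM in labelled knockout libraries, so the controls spread more widely than the groups differed. Its log2 fold change of -0.32 (adjusted p = 0.0858, edgeR) passed without control 1 (-0.50, adjusted p = 0.00132) and without labelled knockout 1 (-0.42, adjusted p = 0.0465), and turned to 0.15 (adjusted p = 0.149) with the offsets for length and GC content. The mitochondrial mRNA of cytochrome b, mt-Cytb, fell, with a log2 fold change of -2.43.

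The Rieske iron-sulfur protein joins complex III last, and its helpers did not move together. Ttc19, which clears fragments of that protein from the finished complex, read 31.5, 28.0 and 27.7 CPM in controls and 36.3, 37.5 and 39.6 CPM in labelled knockout libraries. All labelled knockout libraries were above all controls, with a log2 fold change of 0.37 ± 0.0959 (adjusted p = 0.0044, edgeR). The AAA protein Bcs1l, which moves the Rieske protein across the membrane, was at -0.28 (95% interval -0.58 to 0.03) and passed as lower without control 1 (adjusted p = 0.0288). The Rieske chaperone Lyrm7 was at 0.06 (-0.26 to 0.38).

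Complex IV has the largest set, and 2 of its 14 measured factors rose and 3 fell, while 9 did not pass (median 0.07). Cox10 makes heme O, the first of the steps to the heme A of complex IV. It read 28.6, 24.1 and 24.1 CPM in controls and 34.7, 32.7 and 33.1 CPM in labelled knockout libraries, all higher than the highest control, at a log2 fold change of 0.38 ± 0.101 (adjusted p = 0.0055, edgeR). Cox15, which turns heme O into heme A, read 83.9, 82.5 and 78.2 CPM against 92.8, 98.2 and 87.5 CPM. It did not overlap between the groups either, but its fold change of 0.19 ± 0.0748 just missed the threshold (adjusted p = 0.0511, edgeR) and passed with median-ratio factors, with library totals, without mitochondrial genes and without control 1. Surf1, which acts where heme meets COX1, was at -0.005 with a 95% interval of -0.19 to 0.18. The start region of Cox10 is shown for the heme A pair, since it held both an ETS and a YY1 match.
Cox10 promoter, chr11:64079423-64079722, strand -: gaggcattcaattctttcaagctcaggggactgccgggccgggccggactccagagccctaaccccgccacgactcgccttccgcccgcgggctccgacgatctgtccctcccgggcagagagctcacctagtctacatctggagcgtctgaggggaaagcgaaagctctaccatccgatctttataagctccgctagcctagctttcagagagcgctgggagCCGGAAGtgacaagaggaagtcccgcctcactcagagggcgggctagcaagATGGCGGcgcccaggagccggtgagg
The ETS match of Cox10 lies before the start and the YY1 match after it.

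Copper delivery to complex IV held a large decrease. Cox19, a small protein of the intermembrane space that keeps the copper protein COX11 working, read 35.5, 46.2 and 43.7 CPM in controls and 22.9, 19.9 and 23.6 CPM in labelled knockout libraries. Every labelled knockout library was far below every control, and the log2 fold change of -0.91 ± 0.114 had the lowest adjusted p of all members (5.93e-06, edgeR). Coa6, which works with the SCO proteins on the copper site of COX2, read 21.8, 24.4 and 22.2 CPM in controls and 18.5, 14.8 and 19.3 CPM in labelled knockout libraries. The gap between the groups was small, and the fold change of -0.38 ± 0.119 (adjusted p = 0.015, edgeR) was lost when either labelled knockout 2 or control 2 was left out (adjusted p up to 0.073), under library totals and under the length and GC offsets (adjusted p = 0.148). Sco1, which passes copper to COX2, was at 0.23 (95% interval -0.01 to 0.48), and Cox11, which passes copper to COX1, at 0.14 (-0.17 to 0.45). Cox11 shares 48.3% of its exonic bases with Tom1l1 on the other strand.

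Factors that guide single subunits of complex IV moved in both directions. Cox18, which inserts the tail of COX2 into the inner membrane, read 22.1, 21.5 and 23.8 CPM in controls and 33.7, 31.3 and 29.7 CPM in labelled knockout libraries. The groups were well apart, with a log2 fold change of 0.49 ± 0.0995 (adjusted p = 0.000666, edgeR). Pet100, which acts on an intermediate of complex IV, read 5.40, 12.6 and 12.03 CPM in controls and 4.53, 4.31 and 5.09 CPM in labelled knockout libraries. Control 1 lay near the labelled knockout libraries and far from controls 2 and 3, so the fold change of -1.08 ± 0.259 (adjusted p = 0.00262, edgeR) ran from -1.40 without control 1 to -0.86 without control 2. In the annotation 52.6% of the exonic bases of Pet100 overlap Pcp2 on the other strand, a gene without a row in the count table, so its value is uncertain. Its start region is shown beside that of Uqcc3 as the other member that fell more than 2-fold (2.12-fold).
Pet100 promoter, chr8:3621301-3621600, strand +: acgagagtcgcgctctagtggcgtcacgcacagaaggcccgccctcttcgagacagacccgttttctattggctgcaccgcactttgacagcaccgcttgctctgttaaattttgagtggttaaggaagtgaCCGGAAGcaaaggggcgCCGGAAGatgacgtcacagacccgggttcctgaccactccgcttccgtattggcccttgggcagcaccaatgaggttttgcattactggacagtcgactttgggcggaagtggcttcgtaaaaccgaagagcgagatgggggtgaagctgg
Pet100 has ETS matches in this window where Uqcc3 has an E-box. Cox14 and Coa3, which bind newly made COX1, did not pass, at -0.10 (95% interval -0.29 to 0.09) and -0.17 (-0.40 to 0.06), and Coa3 passed as lower without labelled knockout 1 (-0.28, adjusted p = 0.0477). With the offsets Cox14 was called higher (0.19, adjusted p = 0.0183), so no direction can be given for it. Cox20, the chaperone of COX2, could hardly be measured at 29 to 45 counts per library, with an interval of -0.59 to 0.95, and 91.1% of its exonic bases overlap Hnrnpu. Coa5 and Coa7 did not pass, at -0.15 (-0.31 to 0.01) and 0.28 (-0.04 to 0.60), and Coa5 passed as lower with the offsets (adjusted p = 0.00812). Coa7 was called higher under library totals (adjusted p = 0.0416) and when labelled knockout 2 was left out (0.42, adjusted p = 0.0331). The mitochondrial mRNAs of complex IV, mt-Co1, mt-Co2 and mt-Co3, fell, with log2 fold changes of -1.40, -1.77 and -1.67.

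Of the ATP synthase factors, Atpaf2, the chaperone of the alpha subunit of F1, read 41.2, 40.5 and 37.3 CPM in controls and 49.2, 54.5 and 53.4 CPM in labelled knockout libraries. All labelled knockout libraries were higher, with a log2 fold change of 0.40 ± 0.0886 (adjusted p = 0.00149, edgeR). Atpaf1, the chaperone of the beta subunit, was at 15.03 ± 0.330 and 15.9 ± 1.10 CPM (SD, n = 3 each) and did not pass (0.08, 95% interval -0.16 to 0.33). The log2 ratio of Atpaf1 to Atpaf2 was -1.44, -1.41 and -1.35 in controls and -1.70, -1.665 and -1.79 in labelled knockout libraries, without overlap. The difference of -0.32 had an exact two-sided permutation p of 0.1, the smallest that 3 against 3 can give. Tmem70, which helps to form the ring of c subunits, read 160, 161 and 147 CPM in controls and 147, 125 and 134 CPM in labelled knockout libraries. The lowest control and the highest labelled knockout library nearly touched (147.5 and 146.7 CPM). Its fold change of -0.21 ± 0.0771 (adjusted p = 0.0349, edgeR) was lost in 7 of 15 alternatives, among them library totals (adjusted p = 0.257) and leaving out control 1, control 2, labelled knockout 2 or labelled knockout 3 (adjusted p up to 0.135).

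Levels of different members were compared per kilobase of transcript (CPM per kilobase of the longest coding transcript in GENCODE M21). They spanned from 172 ± 41.3 for Uqcc2 and 136 ± 14.1 for Cox14 in controls to 1.96 ± 0.275 for Sdhaf3 and 1.86 ± 0.206 for Sdhaf1 (SD, n = 3), with a median of 13.4. Tmem70 followed at 91.5 ± 4.52, then Coa3 at 63.2 ± 7.12 and Surf1 at 61.1 ± 1.75. Uqcc2 and Cox14 did not differ beyond their spread, nor did Coa3 and Surf1, nor Sdhaf3 and Sdhaf1. The ranks of Ndufaf2, Sdhaf1, Cox11, Cox20 and Pet100 are uncertain. From 48.3% to 91.1% of their exonic bases overlap a gene on the other strand, and the kit does not mark strand. In the labelled knockout libraries the order was much alike (Spearman's rho 0.948 over the 39 members, which share libraries and lengths between the groups), with Uqcc2 again first at 137 ± 23.2 per kilobase.

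The structural subunits that these factors assemble are given for comparison, by complex. Of 102 listed names of nuclear subunits, 78 had counts and were tested. Of these 78, 3 rose and 44 fell, the median being -0.38 on the log2 scale, against 7 and 7 of 39 assembly factors. The called share of the subunits was 60.3%, against 44.2% of all tested genes, of which 21.3% rose and 22.9% fell. For complex I, 1 of 35 subunits rose and 18 fell (median -0.28), against 2 and 1 of 12 assembly factors (median 0.08). For complex II, 0 of 4 rose and 1 fell, Sdhc at -0.56. For complex III, 1 of 9 rose and 4 fell (median -0.26), against 1 and 1 of 6 (median -0.11). For complex IV, 0 of 12 rose and 10 fell (median -0.53), against 2 and 3 of 14 (median 0.07). For complex V, 1 of 18 rose and 11 fell (median -0.44), against 1 and 1 of 3 (median 0.08). The complex V list includes Atpif1, an inhibitor of the enzyme and not a structural subunit, which was among those that fell (-0.37). The called decreases with the largest changes among complex IV subunits were Cox7a1 (3.48-fold lower, from 3.24 CPM in controls), Cox7b (-1.22 on the log2 scale), Cox7a2 (-1.07) and Cox6c (-1.01). The 3 subunits that rose were Ndufs1, Cyc1 and Atp5b. The difference between the lists was not tested.

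**Figure D3:**
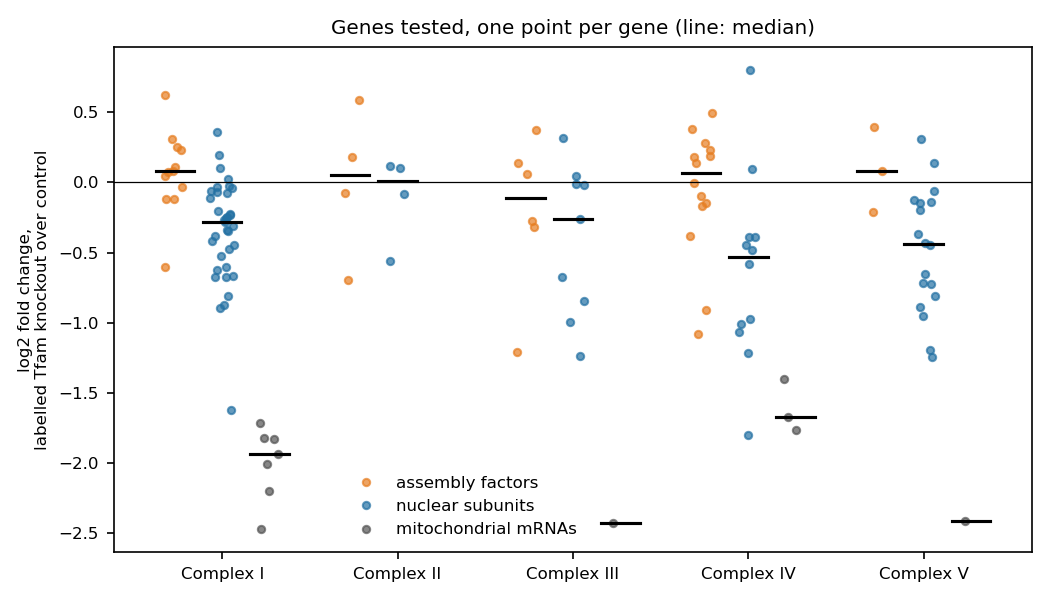
Log2 fold change (y axis) of tested genes by complex, 1 point per gene with a line at the median, for assembly factors, nuclear subunits and mitochondrial mRNAs. The complex V subunits include the inhibitor Atpif1. The medians of the assembly factors lie between -0.11 and 0.08, those of the nuclear subunits between -0.53 and 0.01, and all mitochondrial mRNAs lie at -1.40 or below.

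Transcript length moved with these results. Subunit transcripts were shorter (median 870 bases) than those of assembly factors (1813 bases). Of the 9 members with transcripts under 1000 bases 0 rose and 3 fell, with a median of -0.17, while of the 30 longer ones 7 rose and 4 fell, with a median of 0.12. Among all tested genes the 1430 under 1000 bases had a median of -0.21, with 7.2% higher and 28.5% lower. Across the 39 members Spearman's rho of fold change with length was 0.404, against 0.128 across 13337 genes, both as descriptions over genes of the same libraries. With per-library offsets for length and GC content, 8 members rose and 8 fell (41% called, against 48.5% of 13337 genes). The members' median was 0.13, against 0.005 for all these genes, and 12 of the 14 calls held (not Nubpl and Coa6). With the offsets 8 of the nuclear subunits rose and 36 fell, with a median of -0.17.

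**Figure D4:**
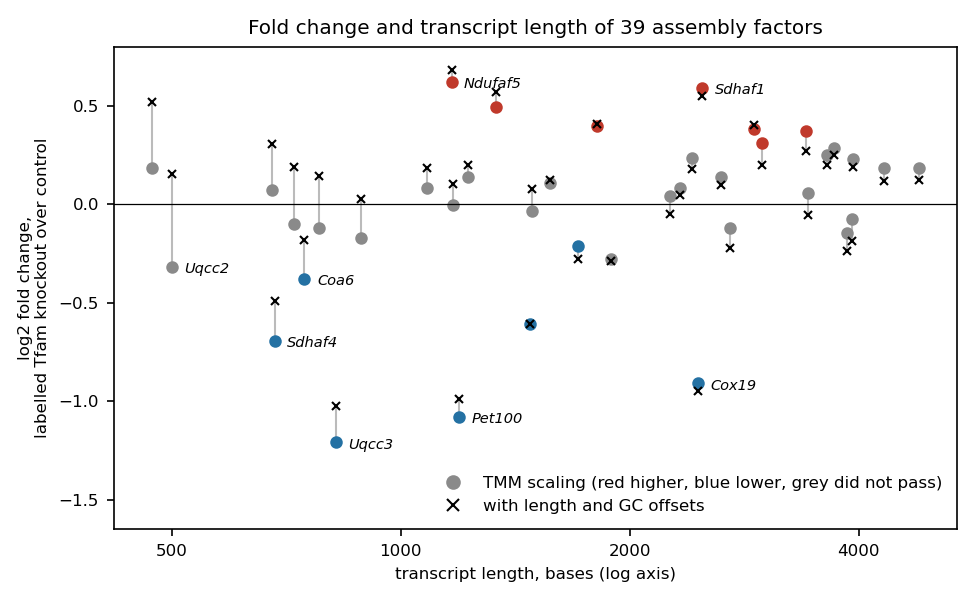
Log2 fold change (y axis) of the 39 members against transcript length in bases (log axis), with TMM scaling (circles, coloured by call) and with length and GC offsets (crosses), joined by a line for each gene. The members under 1000 bases move up with the offsets, Uqcc2 from -0.32 to 0.15, while Cox19 and Ndufaf5 stay near their values.

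With library totals alone the 6 members called in addition were Ndufaf4, Acad9, Uqcc1, Sco1, Cox15 and Coa7, all higher, and the median of the members was 0.17 when that of all tested genes was 0.10. Higher genes made up 61.8% of all calls under that scaling and 48.2% with TMM. The called direction of the 14 members was kept in all 15 alternatives, and 10 of them were called in every one: Ndufaf1, Ndufaf5, Sdhaf4, Ttc19, Uqcc3, Cox10, Cox18, Cox19, Pet100 and Atpaf2.

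Of 28 further assembly factors tested, 3 rose and 10 fell (46.4% called, against 44.2% of tested genes), with a median of -0.07. Higd1a, a hypoxia-induced protein that associates with complex IV, fell from 67.2 to 24.6 CPM in the mean (-1.44). The inner membrane protease Afg3l2 fell from 545 to 346 CPM (-0.66), and Smim4, now counted among complex III factors, by 0.88. Cmc1, which holds early COX1 intermediates, fell by 0.82, and its relative Cmc2 by 0.40. Taco1, the translational activator of COX1, rose by 0.52. Of the further complex I factors, Tmem186 rose by 0.39 and Dmac1 fell by 0.40.

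Cofactor supply was read from 3 further lists. Over all tested genes 44.2% were called. Among iron-sulfur cluster genes 3 of 15 rose and 2 fell (33.3% called), among them the chaperone Hspa9 (0.49) and Glrx5 (0.27) against the ferredoxin reductase Fdxr (-0.57) and Iba57 (-0.36). Without control 2 only 3 of them were called, where 35.6% of all tested genes were. Among copper handling genes 2 of 10 rose and 4 fell (60% called). The copper exporter Atp7b fell by 4.66 from 6.45 to 0.259 CPM (95% interval -5.45 to -3.86). It had only 2, 7 and 4 counts in labelled knockout libraries 1 to 3, so the size of its change is imprecise. The metallothionein Mt1 fell by 1.27, the copper chaperone Atox1 by 0.69 and Ccs, which loads superoxide dismutase, by 0.54. The copper transporter relative Slc31a2 rose by 0.84 and Commd1 by 0.44. Among heme genes 2 of 11 rose and 4 fell (54.5% called), with the heme-degrading Hmox1 at -1.40, Uros at -0.70, Urod at -0.44 and Ppox at -0.29. Alad, at 0.49, was among those that rose. All these values are log2 fold changes.

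Start regions were found for 34 of the 39 members, and motif matches are a description of these 300 bases only. The ETS letters were in 14 of 34 members (41.2%), against 9.93% of 27025 genes with a start region and 17.2% of the 12066 with counts. They stood in 2 of 6 members that rose, 2 of 5 that fell and 10 of 23 that did not pass. The YY1 letters were in 10 of 34 (29.4%, against 7.95% of genes with counts), with 3 of 6 members that rose, 0 of 5 that fell and 7 of 23 that did not pass. The NRF1 letters were in 3 (8.82%, against 6.41%) and the E-box in 5 (14.7%, against 10.9%). Searched too were CCAAT, in 16 of 34 members (47.1%, against 42.4% of genes with counts), and ACGTG, which lies within the E-box, in 11 (32.4%, against 27.5%). CCAAT is not capitalised in the stretches shown, though Uqcc3 and Pet100 hold it.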

How the data were processed

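RNA-seq of poly(A) RNA from 6 BV2 libraries was used, in 2 groups of 3 taken from the labels. The authors deposited one table of raw counts of reads for each gene. Per the submitters' processing notes, reads were handled with featureCounts 2.0.0, HISAT2 2.1.0, bcl2fastq 2.17 and SAMtools 1.9, on GRCm39. The treatment of multi-mapping reads was not given in the sources used here. The kit does not mark strand. The authors' second table was not used.

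The test was edgeR's quasi-likelihood test (edgeR 4.0.16, R 4.3.3, TMM, filterByExpr, glmQLFit, glmQLFTest, Benjamini-Hochberg adjustment over 13403 genes, called below 0.05). An SE is the fold change (log2) divided by √F. The members and gene lists were chosen with earlier results of these data known. Any member could be named, with all library values for called ones; from each other list the rule allowed up to 4 called genes, by size of change, whose mean reached 1 CPM. Ccs, Commd1, Glrx5, Ppox, Taco1, Cmc2, mt-Co1, mt-Co2, mt-Co3, Ndufs1, Cyc1, Atp5b and the marker genes that rule would not name were chosen after their values were seen. The 6 motifs were also chosen then, and longer letters for NRF1 and YY1 were searched before the cores given. A ratio of Sco1 to Sco2 was planned and not made. Alternatives were DESeq2 1.42.0, limma 3.58.1 (voom), other scalings and filters, a replicate block, length and GC offsets, and each library left out. On simulated counts with 13043 genes tested, edgeR recovered 36% of genes changed 1.25-fold, 82% at 1.5-fold, 98% at 2-fold and 100% at 4-fold, and 6.51% of its calls were false. Only 50 genes were changed at each fold, evenly in both directions and drawn from genes without low expected counts. In the data 44.2% of genes were called, so these shares need not hold there or for members with few counts. Lengths, GC and overlaps came from GENCODE M21 (GRCm38, another build), by symbol. Replicates of a group differed by more than sampling noise (chi-square over its degrees of freedom 5.62 to 17.5).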

Additional observations from a re-analysis of the deposited data

How the results depend on the processing

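The 14 called members kept their direction in all 15 alternatives, and 193 of 210 values stayed past the threshold. The 17 lost calls were those of Tmem70, Coa6, Nubpl and Sdhaf1. With library totals 13 members were higher, 5 complex I factors and 1 complex V factor were called. That scaling called 46.2% of the members, against 46.3% of all tested genes. Complex V factors called were also 1 with no filter and 1 with the replicate block. Leaving out each library gave 5 to 9 members higher and 5 to 9 lower, 1 to 2 complex II factors, 2 to 4 complex III factors (4 without control 1), 1 to 2 complex V factors, and 3 to 6 iron-sulfur genes. In those fits 28.2% to 41% of the members were called, against 35.1% to 41.8% of all tested genes. The replicate block (5255 genes called, 7 members higher and 6 lower) ended the call of Tmem70. The numbers are not stated to pair the samples. Correlations of same-numbered libraries' deviations from their group means were -0.139, -0.152 and 0.0426. So few pairs cannot show whether same-numbered libraries shared a culture or batch, so pairing stays undecided. For 11 members that did not pass the main test the sign changed. Ndufaf3 was at 0.058 with limma-voom, 0.067 with library totals and 0.078 with the length and GC offsets. The offsets also gave 0.14 for Ndufaf8, -0.051 for Tmem126b, -0.052 for Lyrm7, 0.15 for Uqcc2, 0.11 for Surf1, 0.19 for Cox14 and 0.030 for Coa3. Library totals gave 0.026 for Sdhaf2, 0.094 for Surf1 and 0.00081 for Cox14. Surf1 was at 0.0065 without mitochondrial genes and 0.0018 with no filter. Leaving out each library ran from -0.20 to 0.26 for Ndufaf3, -0.057 to 0.18 for Ndufaf6, -0.10 to 0.16 for Tmem126b, -0.076 to 0.19 for Lyrm7, -0.064 to 0.086 for Surf1 and -0.20 to 0.49 for Cox20. The cause was not tested. Cox20 had the lowest mean count of the members (38.8 per library).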

Other observations

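The short members had the same libraries at the bottom of both groups, a pattern seen after the values were examined. Among the 9 members with transcripts under 1000 bases, control 1 was the lowest control for 8 (all but Uqcc3) and labelled knockout 2 the lowest of its group for 8 (all but Cox20). Among the 30 longer members control 1 was lowest for 12 and labelled knockout 2 for 15. Over all tested genes under 1000 bases control 1 was lowest for 55.8% and labelled knockout 2 for 57.6% of 1430, and over longer genes for 32.7% and 34.9% of 11907. Uqcc2, the member with the highest level per kilobase, showed it most plainly, at 62.2 CPM in control 1 against 100 and 95.1, and at 55.2 CPM in labelled knockout 2 against 77.1 and 73.0.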
